A study of Mus musculus with 4 samples.

Results

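The genes described here are those of the mouse mitochondrial genome. They were found by matching the Ensembl gene IDs of the deposited table, without version, to the GENCODE M21 annotation and taking each gene on chromosome M. This gave 37 of the 53715 rows: 13 protein genes, 2 rRNAs and 22 tRNAs. All 37 passed the filter on low counts. RNA was measured in whole embryos of the C57BL/DBA2 background at the 2-cell stage. As zygotes they had received an injection of 20 µM siRNA against SPENH0335 (knockdown, 2 libraries) or of 20 µM siNC, the control siRNA (control, 2 libraries), and all were then cultured in KSOM, an embryo medium. The libraries were made from polyadenylated RNA through pre-amplified cDNA. The sources used here do not give the number of embryos in a library or whether replicates came from separate collections. A p-value therefore reflects the spread of these 4 libraries alone, and that spread may be technical. No row carries the name SPENH0335, and its own level was not analysed here.

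The mitochondrial genome is a circle that embryos inherit from the oocyte. It is transcribed from both strands into long RNAs that hold many genes, and most of these are cut apart at the tRNAs that lie between them. The mRNAs then receive poly(A) tails, the tRNAs receive the letters CCA at their 3′ end, and the rRNAs carry short A tails. Its proteins are subunits of respiratory complexes I, III and IV and of ATP synthase (complex V). Mature tRNAs carry no poly(A) tail, so a count on a tRNA row in a library of polyadenylated RNA is not a measure of mature tRNA.

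Total counts lay between 78865491 and 99011109 per library. Of 15 marker genes of the 2-cell embryo, all 15 were tested. Their summed levels were 7393 and 7848 CPM (counts scaled to a common library size) in knockdown and 7667 and 7920 CPM in control. This list mixes 2-cell genes such as Zscan4c and Zfp352 with oocyte genes such as Gdf9, Bmp15 and Zp3. Its sum therefore cannot tell a 2-cell embryo from an oocyte. The 18 cumulus and granulosa markers summed to 51.7 and 67.8 CPM in knockdown and 60.6 and 56.8 CPM in control, with Inha and Ereg at 0. The 9 sperm and spermatid markers summed to 17.7 and 9.71 CPM in knockdown and 15.9 and 14.1 CPM in control, with Smcp at 0. The 6 blood markers summed to 39.5 and 16.1 CPM in knockdown and 37.9 and 60.4 CPM in control. The globin genes Hbb-bs and Hbb-bt were at 0, so these sums came from Hba-a1, Hba-a2, Ptprc and Lyz2. All 4 of these had a log2 fold change, knockdown over control, below 0, with a median of -1.33. For 0 of them was the edgeR unadjusted p under 0.05. Knockdown replicate 2 had the lowest sum of both the sperm and the blood markers.

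The ends of the genes show what the poly(A) tail adds to mitochondrial mRNAs. In the annotation (GENCODE M21, GRCm38), 10 of the 13 protein genes end in a full stop codon. The other 3 end in a single T after the last full codon, which the tail completes to TAA. The annotated stop codons of mt-Nd1 and mt-Nd2 share their last 2 bases with the tRNA genes mt-Ti and mt-Tw. That of mt-Atp6 shares its last base with mt-Co3. Whether these mRNAs keep the shared bases after cutting was not tested. The last 24 bases of mt-Atp6, the gene with the highest level in these libraries, are shown beside the 3 genes that lack a full stop codon, with the stop codon or the single T in capitals:
mt-Atp6, chrM:8584-8607, plus strand: ctatatctacatgataatacaTAA
mt-Co3, chrM:9367-9390, plus strand: tctccatttattgatgaggatctT
mt-Nd4, chrM:11521-11544, plus strand: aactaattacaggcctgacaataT
mt-Cytb, chrM:15265-15288, plus strand: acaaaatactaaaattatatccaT

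Neighbouring genes overlap, and the longest overlap joins the ATP synthase genes mt-Atp8 and mt-Atp6, which share 1 mRNA. Their 43 shared bases are shown because a read within them belongs to both genes, with the start codon of mt-Atp6 and the stop codon of mt-Atp8 in capitals:
mt-Atp8 and mt-Atp6, chrM:7927-7969, plus strand: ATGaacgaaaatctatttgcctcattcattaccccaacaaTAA
The complex I genes mt-Nd4l and mt-Nd4, which also share 1 mRNA, overlap by 7 bases. The ends of mt-Nd5 and mt-Nd6 overlap by 14 bases on opposite strands. The sources used here do not give the strand setting of the counting, so counts from opposite strands cannot be told apart. mt-Nd6 is the only protein gene on the minus strand, and in human mitochondria its mRNA lacks a poly(A) tail. It has an adenine content of 22.2%, against 29.5% to 40.7% in the other 12.

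The 4 tRNA genes with the highest levels and the one with the lowest are shown with the anticodon in capitals, as found by a search for a 5-base stem around a 7-base loop that gave 20 of the 22 anticodons:
mt-Tm, tRNA for methionine, chrM:3845-3913, plus strand: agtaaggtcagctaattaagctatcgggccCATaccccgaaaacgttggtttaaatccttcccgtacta
mt-Ts1, tRNA for serine, chrM:6870-6938, minus strand: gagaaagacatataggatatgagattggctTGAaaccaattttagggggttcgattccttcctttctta
mt-Tq, tRNA for glutamine, chrM:3772-3842, minus strand: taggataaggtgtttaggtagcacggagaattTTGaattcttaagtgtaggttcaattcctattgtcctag
mt-Tl1, tRNA for leucine, chrM:2676-2750, plus strand: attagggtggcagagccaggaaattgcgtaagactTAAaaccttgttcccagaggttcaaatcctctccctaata
mt-Ty, tRNA for tyrosine, chrM:5260-5326, minus strand: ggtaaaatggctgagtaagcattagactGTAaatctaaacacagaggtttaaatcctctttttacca
The first 4 of these genes do not hold the terminal CCA that mature tRNAs carry. The gene of mt-Ty ends in the letters CCA, but the Cs among them pair with the Gs at its start. They are therefore part of the body of the tRNA and not the added CCA.

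Part of the mitochondrial genome also stands, nearly letter for letter, in the nuclear genome, which bears on what a count of a mitochondrial gene means. On the minus strand of chromosome 1, at chr1:24611535-24616197, 7 annotated pseudogenes match mitochondrial genes with identities of 99.71% to 100%. Together they run along positions 6390 to 11042 of chromosome M. Gm10925 matches mt-Atp6, Gm28437 matches mt-Co3, Gm28661 matches mt-Co2, Gm28438 matches mt-Nd3 and Gm10222 matches mt-Nd4l over nearly the whole gene. Gm28439 covers 63.6% of mt-Nd4 and Gm29216 covers 31.3% of mt-Co1. The other 4 annotated copies, 3 on chromosome 2 and 1 on chromosome 13, have identities of 95.2% to 97.6%. For mt-Co1, the gene of the catalytic subunit of complex IV, Gm29216 on chromosome 1 has 1 mismatch over 483 bases. Gm13340 on chromosome 2 has 37 mismatches over 1545 bases. Within the stretch that both copies cover, a window of 60 bases was picked for the most differences from Gm13340. It is shown for mt-Co1, its copy on chromosome 1 and its copy on chromosome 2, whose 3 differing bases are in capitals:
mt-Co1, chrM:6448-6507, plus strand: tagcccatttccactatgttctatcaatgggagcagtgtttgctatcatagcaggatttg
Gm29216, chr1:24616071-24616130, minus strand: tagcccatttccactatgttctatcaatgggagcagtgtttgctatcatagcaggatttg
Gm13340, chr2:22588468-22588527, minus strand: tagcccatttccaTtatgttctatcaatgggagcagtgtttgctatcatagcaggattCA

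The chromosome 1 copies held nearly as many counts as the mitochondrial rows, and the more divergent copies held few. Gm10925 had 1269463 and 1078657 counts in knockdown and 937724 and 819680 in control, and mt-Atp6 itself had 1187633 and 1049269 in knockdown and 914044 and 801860 in control. Gm28437 had 133870 and 107897 counts in knockdown and 117427 and 85485 in control, beside 136544 and 111050 on mt-Co3 in knockdown and 118841 and 88064 in control. In each library the copy therefore followed its mitochondrial gene. Over the 5 copies of nearly whole genes, the copy held 70.6% to 107% of the mitochondrial gene's counts, and the 2 partial copies held 29.3% to 56.9%. The 4 copies on chromosomes 2 and 13 held 0.0095% to 0.940%. The sources used here do not give how reads that match both places were counted, so the counts of these 7 mitochondrial genes are uncertain: a read may have been given to 1 row or to both. By position, 11 mitochondrial genes lie wholly inside the stretch that the chromosome 1 copies span. Of these, mt-Atp8 and 5 tRNAs, mt-Ts1 among them, have no annotated copy that was matched, and whether chromosome 1 holds their sequence was not tested.

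**Figure D1:**
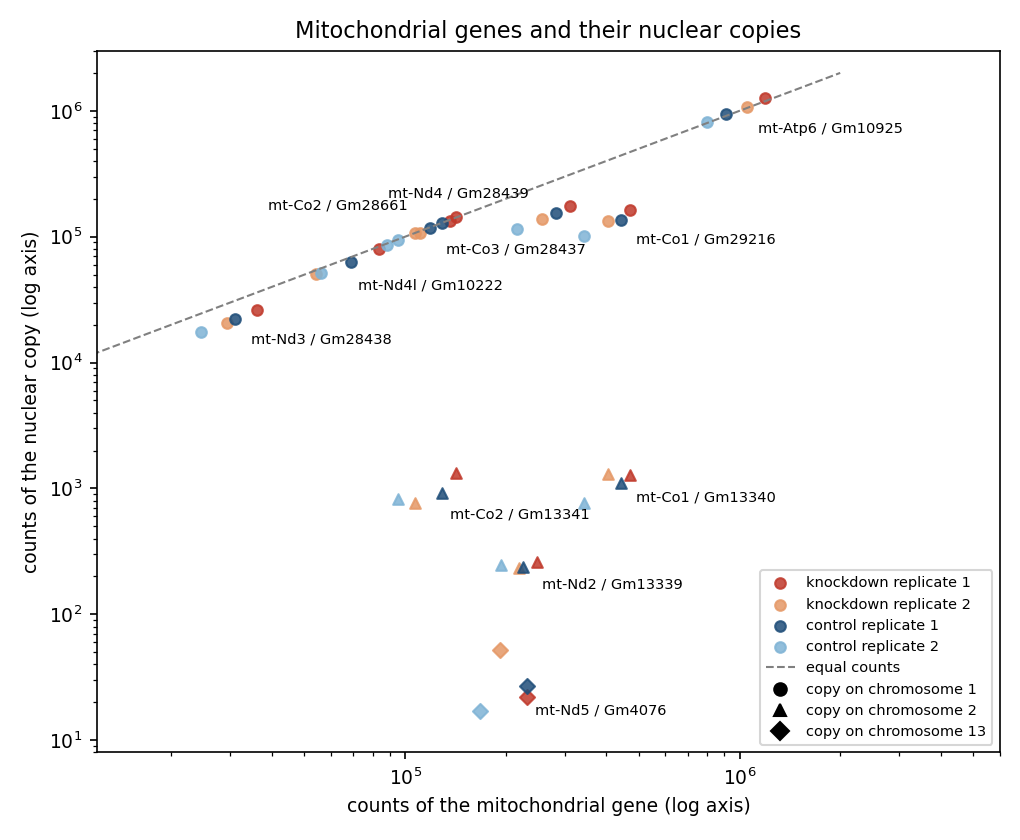
Counts of each annotated nuclear copy (vertical, log axis) against counts of the mitochondrial gene it matches (horizontal, log axis), 1 point per library, with colours for the 4 libraries and shapes for the chromosome. The 5 near-whole copies on chromosome 1 lie close to the line of equal counts at 70.6% to 107%, and copies on chromosomes 2 and 13 lie at or below 0.940% of the mitochondrial gene.

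Within each library the protein genes of the mitochondrial genome differed by more than an order of magnitude in level. Levels are given as CPM per kilobase of gene, with library sizes scaled by TMM, edgeR's trimmed mean. The ATP synthase genes stood highest. mt-Atp6, whose product lies in the proton channel, was at 18057 and 16399.6 CPM per kilobase in knockdown and 15129 and 14651 in control. mt-Atp8, a small subunit of the same enzyme, was at 10604 and 8993 CPM per kilobase in knockdown and 8452 and 8400.3 in control. mt-Cytb, the only mitochondrial gene of complex III, followed at 4527 and 4299.9 CPM per kilobase in knockdown and 4376 and 4282 in control. These 3 genes kept this order in all 4 libraries, and their ranges did not overlap.

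Among the complex IV genes, mt-Co1 had the highest level, at 3154 and 2786 CPM per kilobase in knockdown and 3226 and 2767 in control. mt-Co2, which takes electrons from cytochrome c, was at 2152 and 1668 CPM per kilobase in knockdown and 2118 and 1737 in control. mt-Co3 was at 1803 and 1508 CPM per kilobase in knockdown and 1709 and 1398 in control. In both groups replicate 1 lay above replicate 2 for each of these genes, and the groups overlapped.

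The complex I genes covered a wide range. mt-Nd1 was highest of the 7, at 3356 and 3003 CPM per kilobase in knockdown and 3676 and 3361 in control. mt-Nd2 was at 2479 and 2241 CPM per kilobase in knockdown and 2452 and 2322 in control. mt-Nd4 was at 2335 and 1989 CPM per kilobase in knockdown and 2314 and 1945 in control. These 3 genes kept their order in each library. mt-Nd4l was at 2909 and 1942 CPM per kilobase in knockdown and 2619 and 2347 in control, the widest spread between knockdown replicates of any protein gene (0.58 on the log2 scale). mt-Nd5, the longest of the protein genes, was at 1312 and 1122 CPM per kilobase in knockdown and 1427 and 1145 in control. mt-Nd3 was at 1073 and 895 CPM per kilobase in knockdown and 1001 and 878 in control. The minus-strand gene mt-Nd6 was lowest, at 686 and 586 CPM per kilobase in knockdown and 676 and 536 in control, and lay below every other protein gene and both rRNAs in all 4 libraries.

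The rRNAs, which form the core of the mitochondrial ribosome, lay below the ATP synthase genes, mt-Cytb, mt-Nd1 and mt-Co1 in each library. The large rRNA mt-Rnr2 was at 2195 and 2058 CPM per kilobase in knockdown and 2196 and 2109 in control. The small rRNA mt-Rnr1 was at 1414 and 1296 CPM per kilobase in knockdown and 1347 and 1306 in control. mt-Rnr2 exceeded mt-Rnr1 in each library. Since the libraries were made from polyadenylated RNA, these values do not measure the whole pool of either rRNA.

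By mean level over the 4 libraries the order was mt-Atp6, mt-Atp8, mt-Cytb, mt-Nd1, mt-Co1, mt-Nd4l, mt-Nd2, mt-Nd4, mt-Rnr2, mt-Co2, mt-Co3, mt-Rnr1, mt-Nd5, mt-Nd3 and mt-Nd6. From mt-Nd1 to mt-Nd5 the ranges of neighbours over the 4 libraries overlapped at every step. Compared within a library, most of these steps still held in 4 of 4 libraries. The exceptions were mt-Nd4l over mt-Nd2 and mt-Rnr1 over mt-Nd5, which held in 3 of the 4, and mt-Nd4 over mt-Rnr2, which held in 2. Adding the counts of the chromosome 1 copies to their mitochondrial gene, a choice made after seeing the data, changed the rank of 10 of these 15 genes. mt-Atp6 then had a mean level of 32724 in place of 16059 CPM per kilobase, mt-Nd4l 4744 in place of 2454, mt-Co2 3826 in place of 1919 and mt-Co3 3174 in place of 1604. mt-Atp6 and mt-Atp8 stayed first and mt-Nd6 last. The middle of the order therefore depends on how reads of the chromosome 1 copies are counted.

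**Figure D2:**
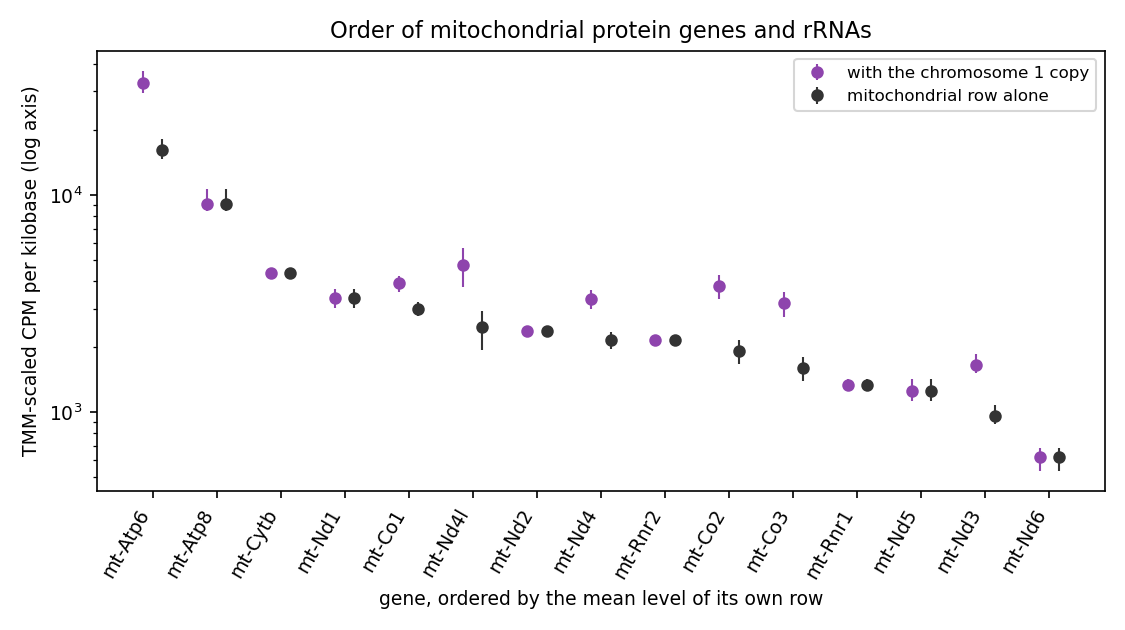
Mean level over the 4 libraries of each protein gene and rRNA (vertical, TMM-scaled CPM per kilobase, log axis), with lines from the lowest to the highest library, counted with the chromosome 1 copy (purple) and as the mitochondrial row alone (black). mt-Atp6 is first under both at 32724 and 16059, and genes such as mt-Nd4l, mt-Co2 and mt-Co3 move up when the copy is added.

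The tRNA rows differed among themselves by 28.0-fold in mean level. The highest reached the levels of the lower protein genes: mt-Tm had a mean of 1706 CPM per kilobase, beside 1604 for mt-Co3 and 621 for mt-Nd6. The 4 highest were the same genes in all 4 libraries. mt-Tm was at 1792 and 1578 CPM per kilobase in knockdown and 1748 and 1704 in control. mt-Ts1 was at 1471 and 1162 CPM per kilobase in knockdown and 1301 and 928 in control. mt-Tq was at 1004 and 867 CPM per kilobase in knockdown and 952 and 932 in control. mt-Tm and mt-Tq lie next to each other on opposite strands between mt-Nd1 and mt-Nd2. mt-Ts1 lies on the minus strand directly behind mt-Co1, whose last 3 bases it overlaps, so reads of an RNA that runs on past mt-Co1 cannot be told apart from reads of mt-Ts1. mt-Tl1, which lies between mt-Rnr2 and mt-Nd1, was at 1006 and 963 CPM per kilobase in knockdown and 875 and 850.1 in control, so the knockdown libraries lay above both controls.

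The other tRNAs with a mean of at least 10 CPM were mt-Tr, mt-Tt, mt-Tp, mt-Tg, mt-Ti and mt-Tk, with mean levels of 544, 536, 409.6, 348, 333 and 175 CPM per kilobase in that order. The remaining 12 tRNAs had mean levels of 60.9 to 148 CPM per kilobase. They include the 5 tRNA genes of the cluster between mt-Nd2 and mt-Co1 and the 3 between mt-Nd4 and mt-Nd5, all with a mean below 10 CPM. Counts of a tRNA in a library ran from 320 to 11942. mt-Tm, mt-Ts1 and mt-Tq together held 45.1% to 46.4% of all tRNA counts in each library. The 14 tRNAs on the plus strand had a median mean level of 162 CPM per kilobase and the 8 on the minus strand one of 117, with mt-Ts1 and mt-Tq of the minus strand among the highest of all. tRNA genes are short, so a tRNA row can hold reads that reach into its neighbours.

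**Figure D3:**
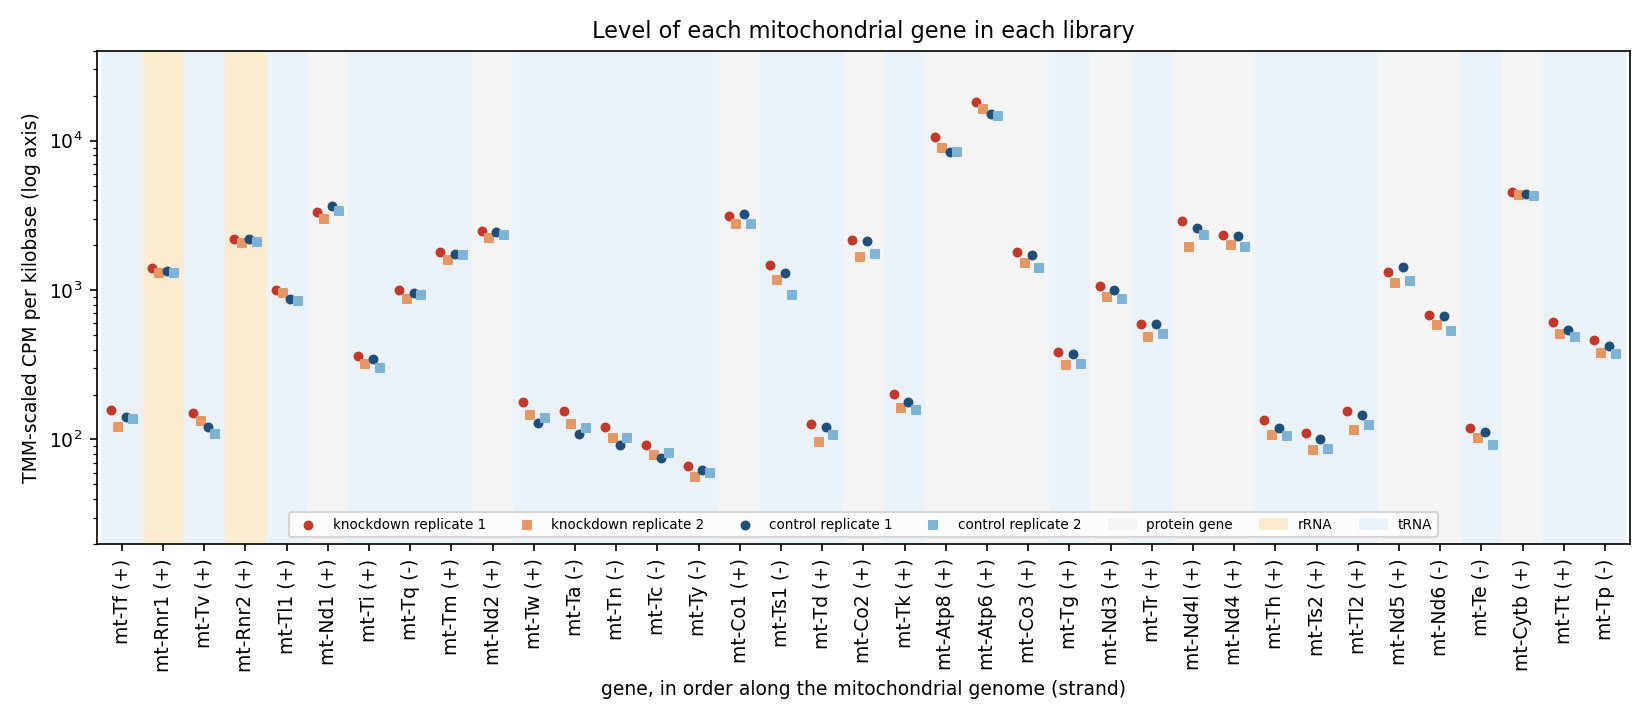
Level of each of the 37 genes in each library (vertical, TMM-scaled CPM per kilobase, log axis) in their order along the mitochondrial genome (horizontal, with strand), with shading for the class of gene. mt-Atp6 and mt-Atp8 stand above all others, and most tRNAs lie below 200.6 except mt-Tm, mt-Ts1, mt-Tq, mt-Tl1 and the 5 next in order.

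Mitochondrial genes held 4.70% and 3.87% of all counts in knockdown and 4.39% and 4.07% in control, which averaged 4.28% ± 0.587 in knockdown and 4.23% ± 0.226 in control (SD, n = 2 each; exact permutation p = 1, two-sided). With 2 libraries against 2, the smallest p that this test allows is 0.3333, so it cannot reach 0.05. The protein genes held 4.14% and 3.39% of all counts in knockdown and 3.85% and 3.55% in control. The rRNAs held 0.494% and 0.426% in knockdown and 0.480% and 0.467% in control. The tRNAs held 0.0671% and 0.0527% in knockdown and 0.0605% and 0.0553% in control. For each class the knockdown replicates lay on either side of both controls. A share of a bulk library cannot tell fewer mitochondrial genomes from less RNA per genome. The chromosome 1 copies held a further 2.11% and 1.65% of all counts in knockdown and 1.77% and 1.63% in control.

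Among mitochondrial counts alone the classes kept nearly the same proportions. Protein genes made up 88.1% and 87.6% in knockdown and 87.7% and 87.2% in control, rRNAs 10.5% and 11.02% in knockdown and 10.9% and 11.5% in control, and tRNAs 1.43% and 1.36% in knockdown and 1.38% and 1.36% in control. The groups overlapped for each class. For the genes of ATP synthase and complex I they did not. ATP synthase genes took 31.5% and 31.9% of mitochondrial counts in knockdown and 27.7% and 29.3% in control. Complex I genes took 28.3% and 27.4% in knockdown and 30.7% and 29.2% in control. Both exact permutation tests gave the smallest p they can give, 0.3333 (two-sided, n = 2 each), before any adjustment for the number of shares compared. mt-Cytb and the complex IV genes overlapped between groups. All of these are shares of the same total, so a larger share of one set lowers the rest. As TMM-scaled CPM, complex I genes stood at 12989 and 11180 in knockdown and 13332 and 11677 in control, and the groups overlapped. ATP synthase genes stood at 14460 and 13003 CPM in knockdown and 12027 and 11691 in control, which did not overlap.

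Ratios of counts per base within a library, which do not depend on the scaling of libraries, were computed for 7 pairs. The ratio of protein genes to rRNAs was 1.86 and 1.77 in knockdown and 1.78 and 1.69 in control. The ratio of tRNAs to protein genes was 0.123 and 0.118 in knockdown and 0.119 and 0.118 in control. mt-Nd6 over the other protein genes was 0.187 and 0.180 in knockdown and 0.195 and 0.169 in control. The groups overlapped for these 3 ratios.

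For the other 4 ratios the groups did not overlap. ATP synthase genes over complex IV genes stood at 6.35 and 6.68 in knockdown and 5.27 and 6.07 in control, higher by 0.20 on the log2 scale, and by 0.10 without control replicate 1 and 0.31 without control replicate 2. With the chromosome 1 copies added it stood at 7.65 and 8.08 in knockdown and 6.38 and 7.42 in control, which also did not overlap. Complex I genes over complex IV genes stood at 0.793 and 0.799 in knockdown and 0.812 and 0.843 in control. mt-Rnr2 over mt-Rnr1 stood at 1.55 and 1.59 in knockdown and 1.63 and 1.61 in control. The 4 plus-strand protein genes nearest the start of the genome over the 4 nearest its end stood at 1.14 and 1.14 in knockdown and 1.19 and 1.18 in control. The last 3 ratios were lower in knockdown by 0.047 to 0.056 on the log2 scale. Each of the 4 had an exact permutation p of 0.3333, the smallest possible, and 0.5833 after Benjamini-Hochberg adjustment over the 7 ratios (two-sided, n = 2 each), so no ratio passed the threshold.

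**Figure D4:**
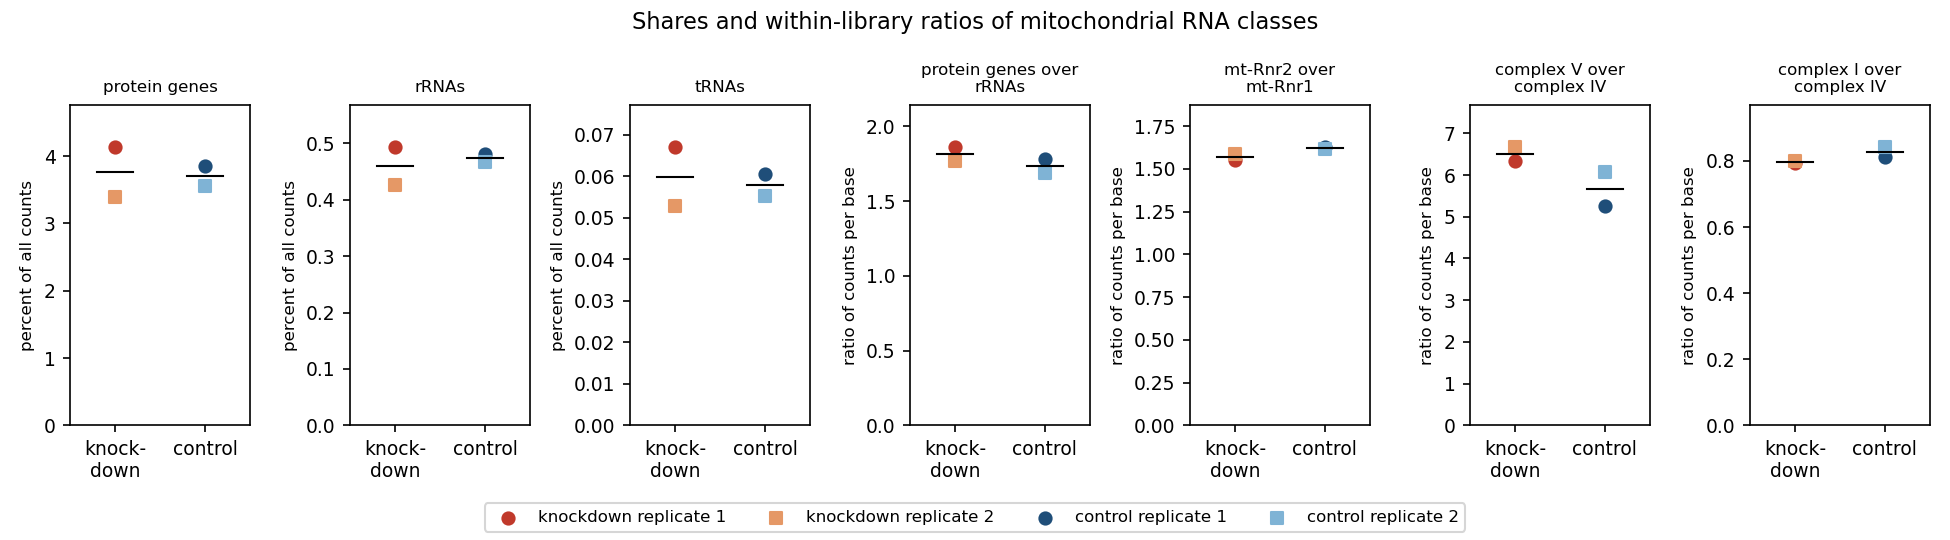
The first 3 panels give the percent of all counts on protein genes, rRNAs and tRNAs, and the other 4 give ratios of counts per base within a library; points are libraries, with knockdown on the left and control on the right, and bars are group means. The class shares overlap between groups, while ATP synthase genes over complex IV genes lie at 6.35 and 6.68 in knockdown and 5.27 and 6.07 in control.

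No mitochondrial gene passed the test of knockdown against control. By edgeR's quasi-likelihood test the adjusted p of each of the 37 was 0.9999. Of the 25565 genes tested, 0 passed the adjusted threshold of 0.05 in either direction (0%), and the smallest adjusted p was 0.5951. An unadjusted p under 0.05 was found for 984 genes (3.85%), with 1.56% higher and 2.29% lower in knockdown. DESeq2 called 19 genes higher and 32 lower, and 0 of the 37 mitochondrial genes. The log2 fold changes of the 37, knockdown over control, lay between -0.15 and 0.31 with a median of 0.066, against a median of -0.0025 over all genes tested. The 95% intervals of all 37 lay within 2-fold in either direction, between -0.83 and 0.96 on the log2 scale. A miss of the threshold does not show that levels were equal.

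The ATP synthase genes had the highest log2 fold changes among the protein genes. mt-Atp6, with the levels given above, was higher in both knockdown libraries than in both controls, with a log2 fold change of 0.21 (SE 0.068, 95% interval 0.0395 to 0.38), an edgeR unadjusted p of 0.0242 and an adjusted p of 0.9999. It was the only one of the 37 with an unadjusted p under 0.05. Its chromosome 1 copy Gm10925, which shares its sequence, had 13144 and 11481 CPM in knockdown and 10569.6 and 10199 in control, with a log2 fold change of 0.25 (SE 0.080) and an edgeR unadjusted p of 0.0243. Because reads of both rows may be the same reads, Gm10925 is not a separate measurement. mt-Atp8, which shares an mRNA with mt-Atp6, had a log2 fold change of 0.22 (SE 0.0995, edgeR unadjusted p 0.0753) and also lay higher in both knockdown libraries.

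The ratio of mt-Atp8 to mt-Atp6 per base was 0.587 and 0.548 in knockdown and 0.559 and 0.573 in control, so the groups overlapped. mt-Atp6 over mt-Cytb was 3.99 and 3.81 in knockdown and 3.46 and 3.42 in control. mt-Atp6 over mt-Nd1 was 5.38 and 5.46 in knockdown and 4.12 and 4.36 in control. Against mt-Co3, the next gene on the same strand, mt-Atp6 stood at 10.01 and 10.9 in knockdown and 8.85 and 10.5 in control, and these groups overlapped. These ratios were picked after their values were seen and were not tested.

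mt-Nd1 was the only mitochondrial gene lower in both knockdown libraries than in both controls, with a log2 fold change of -0.15 (SE 0.089, edgeR unadjusted p 0.155). Set against mt-Rnr2, which lies upstream of it, mt-Nd1 stood at 1.53 and 1.46 in knockdown and 1.67 and 1.59 in control. For the tRNA between these genes, mt-Tl1 over mt-Rnr2 stood at 0.458 and 0.468 in knockdown and 0.398 and 0.403 in control. The log2 fold change of mt-Tl1 was 0.19 (SE 0.13, edgeR unadjusted p 0.186). The ratios in this group were likewise chosen after their values were seen.

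The other 10 protein genes and both rRNAs overlapped between groups. mt-Cytb had the narrowest error, with a log2 fold change of 0.028 (SE 0.064), and mt-Rnr2 stood at -0.017 (SE 0.071) and mt-Rnr1 at 0.031 (SE 0.083). mt-Nd5 stood at -0.0795 (SE 0.14) and mt-Nd6, which overlaps its end, at 0.070 (SE 0.15). The ratio of mt-Nd6 to mt-Nd5 per base was 0.523 and 0.522 in knockdown and 0.473 and 0.468 in control, a separation that neither gene shows alone. This ratio too was picked after its values were seen. mt-Nd4l over mt-Nd4, which share an mRNA, was 1.25 and 0.977 in knockdown and 1.13 and 1.21 in control.

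Among the tRNAs, 17 of 22 had a log2 fold change above 0, with a median of 0.095, and no edgeR unadjusted p was under 0.05. Over all genes tested, 49.7% had a log2 fold change above 0. The tRNAs are cut from shared long RNAs, so their rows are not independent of each other. Knockdown lay above control in 4 of the 22 tRNAs (18.2%), against 15.6% of all genes tested. These were mt-Tl1, described above, and mt-Tv, mt-Tw and mt-Ta, named after their values were seen. mt-Tv was at 151 and 134 CPM per kilobase in knockdown and 121 and 109 in control. mt-Tw was at 179 and 147 CPM per kilobase in knockdown and 128 and 138 in control. mt-Ta was at 154 and 126 CPM per kilobase in knockdown and 109 and 119 in control. mt-Ts1, with the widest control spread of the named tRNAs, had a log2 fold change of 0.24 (SE 0.21) and overlapped between groups. It stood at 0.016 without control replicate 2 and 0.50 without control replicate 1.

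In all, 7 of the 37 mitochondrial genes (18.9%) had groups that did not overlap, 6 with knockdown higher and 1 with knockdown lower. Over all genes tested this held for 32.7%, with 15.6% higher and 17.1% lower in knockdown. The mitochondrial share was thus no larger than the background. Differences between replicates were shared by the mitochondrial genes: all 37 were higher in knockdown replicate 1 than in knockdown replicate 2, by a median of 0.25 on the log2 scale, and 33 were higher in control replicate 1 than in control replicate 2, by a median of 0.16. The median difference between groups, 0.066, was smaller than either. The part that total counts, which were highest in knockdown replicate 2 and lowest in control replicate 2, had in this was not tested.

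**Figure D5:**
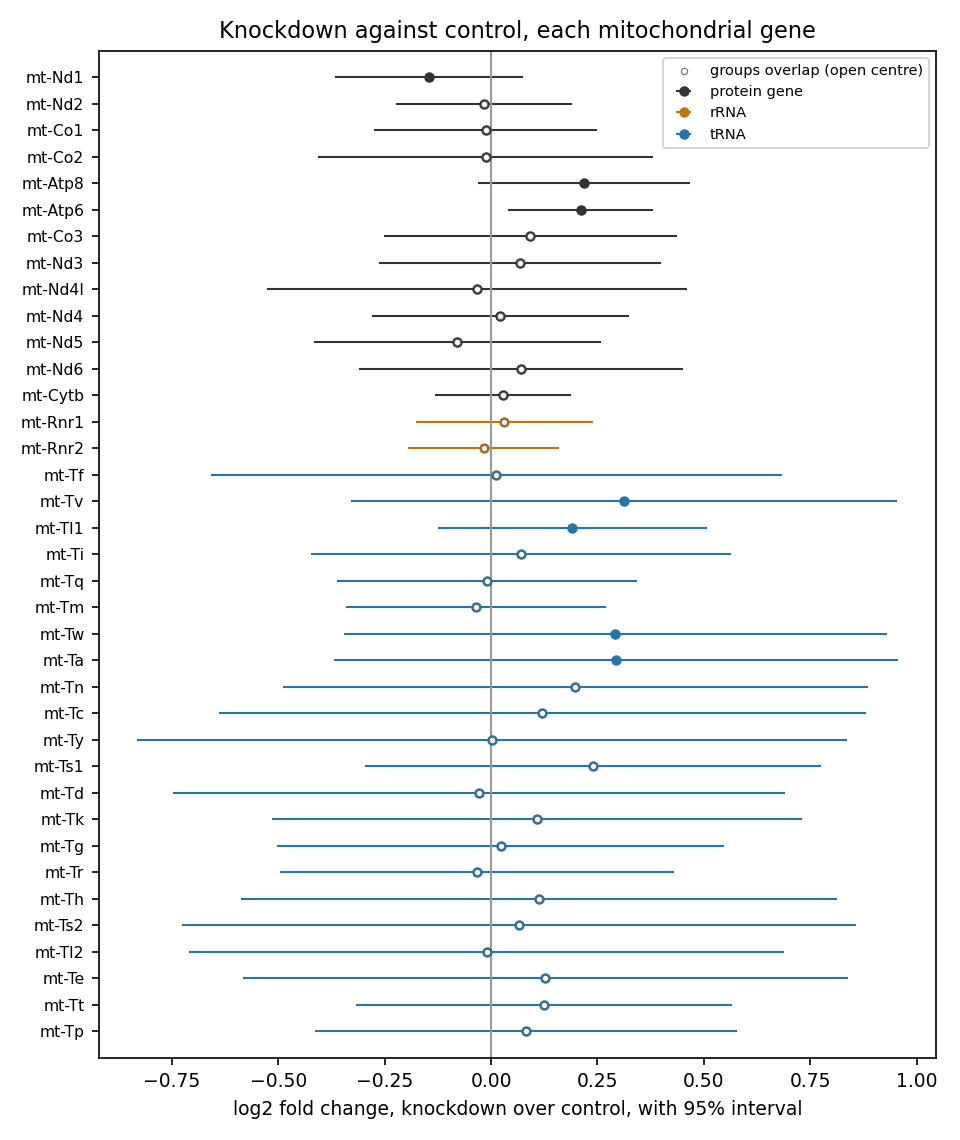
Log2 fold change of each of the 37 genes, knockdown over control (horizontal), with its 95% interval from edgeR, by class and in genome order within each class; open centres mark genes whose groups overlap. All intervals lie between -0.83 and 0.96, and the interval of mt-Atp6, 0.0395 to 0.38, is the only one that leaves out 0.

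Nuclear genes make the enzymes that transcribe, cut, tail and modify mitochondrial RNA. Counts of genes above 0 in the lists below stand beside 49.7% above 0 over all genes tested. Of the 11 listed for transcription, 0 were called, 4 had a log2 fold change above 0 and 7 below, with a median of -0.19. Tfb2m, which helps the polymerase open the promoter, was at 107 and 92.7 CPM in knockdown and 89.3 and 86.8 in control. Tfam, which packages the genome and starts transcription, was at 21.6 and 15.3 CPM in knockdown and 20.8 and 21.5 in control. Polrmt, the RNA polymerase, was at 6.46 and 2.63 CPM in knockdown and 4.60 and 4.49 in control. The knockdown replicates of Polrmt lay on either side of the controls. Tefm, its elongation factor, was at 3.75 and 6.81 CPM in knockdown and 8.79 and 8.62 in control, with a log2 fold change of -0.72 (SE 0.37, edgeR unadjusted p 0.104).

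Of 14 genes listed for cutting mitochondrial RNA, 13 were matched to a row by symbol and Prorp was not. Of these 13, 0 were called, with 6 above 0, 7 below and a median of -0.033. Elac2, which cuts at the 3′ end of tRNAs, was at 27.1 and 29.3 CPM in knockdown and 26.1 and 21.3 in control. Of the 9 genes for stability, tailing and decay, 0 were called, with 8 above 0 and a median of 0.16. Over all genes tested, 49.7% lay above 0. Mtpap, the poly(A) polymerase of mitochondria, was at 181 and 196 CPM in knockdown and 195 and 179.5 in control. Lrpprc, which binds mitochondrial mRNAs, was at 27.2 and 35.0 CPM in knockdown and 25.8 and 31.4 in control. Both overlapped between groups. Pnpt1, a polynucleotide phosphorylase, was the 1 member below 0, at 16.6 and 20.8 CPM in knockdown and 25.1 and 28.4 in control, with a log2 fold change of -0.52 (SE 0.21, edgeR unadjusted p 0.0523).

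Of the 19 genes for modifying rRNA and tRNA, 0 were called, with 6 above 0 and 13 below and a median of -0.11. Knockdown lay below control in 7 of the 19 and above it in 1. Over all genes tested, 17.1% lay below and 15.6% above. The other nuclear lists held 1 to 5 genes with knockdown below control, such as 5 of 36 for complex I and 2 of 11 for transcription. No difference between lists was tested. Pus1, a pseudouridine synthase of tRNAs, was at 1.22 and 1.87 CPM in knockdown and 5.17 and 3.58 in control, with a log2 fold change of -1.5 (SE 0.45, edgeR unadjusted p 0.0172, adjusted p 0.9999). It was the only gene of the 9 nuclear lists with an unadjusted p under 0.05. Rpusd3, of the pseudouridine synthase family, was at 2.39 and 1.72 CPM in knockdown and 4.90 and 3.24 in control. Mrm3, a methyltransferase of the large mitochondrial rRNA, was at 0.994 and 1.71 CPM in knockdown and 2.29 and 3.12 in control. Both lay lower in both knockdown libraries, at levels of a few CPM.

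Of the 17 genes for replicating and packaging the mitochondrial genome, 0 were called, with 8 above 0, 9 below and a median of -0.035. Twnk, the helicase, was at 12.7 and 10.4 CPM in knockdown and 11.8 and 14.9 in control. The nuclear subunits of the respiratory complexes, the partners of the proteins that the mitochondrial genes make, gave 0 calls as well. Medians were -0.042 over 36 genes of complex I, 0.062 over 9 of complex III, -0.094 over 11 of complex IV and -0.089 over 16 of ATP synthase. Atp5md, also listed for ATP synthase, was not matched to a row by symbol. Of the nuclear ATP synthase genes, 6 had a log2 fold change above 0, as mt-Atp6 and mt-Atp8 did, and 10 below. Atp5b, the catalytic subunit, was at 254 and 292 CPM in knockdown and 316 and 291 in control. Atp5a1, its partner in the catalytic ring, was at 47.5 and 62.5 CPM in knockdown and 63.5 and 75.4 in control, with a log2 fold change of -0.34 (SE 0.19). Cox8a, a subunit of complex IV, was at 161 and 125 CPM in knockdown and 169 and 187 in control. No difference between the nuclear and mitochondrial subunits was tested.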

How the data were processed

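Poly(A) RNA of 4 libraries was analysed from whole-number counts per gene, which were deposited by the authors without normalization, by their values. Tools listed in the submitters' processing notes are HISAT2 2.1.0, Trim Galore 0.6.5, CASAVA 1.8 and Picard 2.18.2, with the build mm10. The sources used here do not give the counting tool, its strand setting or its treatment of reads that match several places.

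Gene IDs were matched to GENCODE M21, the source of symbols, coordinates on GRCm38 and sequences. No match was found for 95 rows, with up to 0.01635% of the counts of any library. Counts of 25565 genes, kept by filterByExpr with a minimum of 10 counts, were compared with edgeR 4.0.16 under R 4.3.3 (TMM, quasi-likelihood F-test, two-sided, Benjamini-Hochberg over all genes, threshold 0.05) with group as the only term. DESeq2 1.42.0, other scalings, no filter, the replicate block and leaving out each library were alternatives. The script was tested on simulated data. Shares and ratios were compared by exact permutation over libraries. Nuclear copies were annotated transcripts with at least 95% identity over 50 bases in BLAST 2.17.0. Counting error is small at these depths. The cDNA was amplified, and no molecular identifiers are named in the labels, so spread between libraries is the error used.

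The members, gene lists and markers were chosen with earlier results of these data known. Named genes were all protein genes and rRNAs, tRNAs with a mean of at least 10 CPM, the 3 genes of the smallest p in each nuclear list with 6 key factors, and the 5 copies with the most counts. No libraries were merged: chi-square over degrees of freedom was 28.8 for the closest, the controls.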

Additional observations from a re-analysis of the deposited data

How the results depend on the processing

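The call of 0 genes at an adjusted p under 0.05 held without TMM scaling, with mitochondrial counts left out of the scaling, without the count filter and with the chromosome 1 copies added to their gene, the last chosen after seeing the data. DESeq2 gave 19 genes higher and 32 lower. With 1 library left out, where the lone library is assumed to vary like the others, the counts ran from 0 to 2 higher and 0 to 1 lower, reached without knockdown replicate 1 (2 and 1) and without knockdown replicate 2 (1 and 1). The deviations of same-numbered libraries had a correlation of -0.21 over 8184 genes of at least 10 CPM. With 2 libraries per group this is a single correlation, which cannot tell whether the numbers pair the libraries. The replicate block gave 0 and 0 calls, as did crossed numbers. Under the block, 2 pairs allow no p below 0.5 for shares and ratios. Of 62 named gene results, 0 were called under any setting. The sign turned in 8 under another setting: without TMM for mt-Rnr1 (-0.0062), mt-Tg (-0.0103), mt-Nd4 (-0.0128), mt-Cytb (-0.010) and Mtpap (-0.0325); under DESeq2 for mt-Tq (0.0034) and Gm28661 (0.0026); and with the copies added for mt-Co1 (0.0265). With the copies added, tRNAs over protein genes turned to -0.0157 and mt-Nd6 over the other protein genes to -0.022, and the log2 of the highest over the lowest level was 5.72 in place of 4.69. Without the near-identical genes, protein genes over rRNAs turned to -0.0051. Leaving out 1 library turned the sign in 27 gene results, whose log2 fold changes ran as follows: mt-Rnr1 -0.0319 to 0.0977, mt-Rnr2 -0.0634 to 0.0341, mt-Ti -0.0309 to 0.17, mt-Tq -0.12 to 0.098, mt-Tm -0.13 to 0.0596, mt-Nd2 -0.0902 to 0.0601, mt-Co1 -0.12 to 0.0994, mt-Co2 -0.21 to 0.16, mt-Tk -0.0473 to 0.26, mt-Co3 -0.0466 to 0.24, mt-Tg -0.14 to 0.17, mt-Nd3 -0.0683 to 0.20, mt-Tr -0.18 to 0.10, mt-Nd4l -0.35 to 0.23, mt-Nd4 -0.0992 to 0.15, mt-Nd5 -0.23 to 0.0858, mt-Nd6 -0.0885 to 0.25, mt-Cytb -0.0086 to 0.0704, mt-Tt -0.0061 to 0.25, mt-Tp -0.0788 to 0.23, Tfam -0.47 to 0.0384, Lrpprc -0.0648 to 0.29, Mtpap -0.0497 to 0.0673, Cox7b -0.64 to 0.0906, Gm28439 -0.12 to 0.21, Gm28661 -0.21 to 0.17, Gm28437 -0.0638 to 0.25. The log2 differences of shares ran from -0.12 to 0.16 for protein genes, -0.15 to 0.0611 for rRNAs, -0.13 to 0.22 for tRNAs and -0.13 to 0.15 for all mitochondrial genes. tRNAs over protein genes ran from -0.0086 to 0.0522 and mt-Nd6 over the other protein genes from -0.0871 to 0.12, while ATP synthase over complex IV genes ran from 0.10 to 0.31 and complex I over complex IV genes from -0.083 to -0.0295. mt-Atp6 stayed between 0.14 and 0.28, with an adjusted p of 0.186 at its lowest, without knockdown replicate 1, mt-Atp8 between 0.095 and 0.34 and mt-Nd1 between -0.23 and -0.0625. An effective length, 100 bases below the gene's, changed the rank of 4 of 15 genes. The cause of these changes was not tested.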
